A study of Mus musculus with 9 samples.

Results

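The genes described here are the glucocorticoid receptor and 8 genes that act on its hormone or are known to be induced by it: Nr3c1, Fkbp5, Klf9, Per1, Tsc22d3, Sgk1, Ddit4, Hsd11b1 and Pdk4, 9 of the 23238 gene symbols counted. They were chosen by name from the pathway after Fkbp5 had been seen to be higher with clodronate liposomes in these same libraries. The NMO+CL against NMO values of all 9 are therefore given as a description, without a test. So are the NMO+CL against Normal values, which share the NMO+CL libraries. NMO against Normal was tested, and shares the NMO libraries with the comparison that led to the choice.

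RNA came from microglia sorted as CD45+, CD11b+ and P2ry12+ from the brains of wild-type female C57BL/6N mice, aged 12 weeks, on day 1. Normal mice were untreated. NMO mice received patient-derived NMO-IgG with human complement into the striatum, which damages astrocytes and models neuromyelitis optica. NMO+CL mice received the same injection and, 6 h before it, clodronate liposomes into the peritoneum, which deplete circulating monocytes. There were 3 libraries per group, each from a pool of 3 mice, so p-values measure the spread between pools. Mice given control IgG were not analysed here, and the study's methods describe no mice given empty liposomes. Injection, anaesthesia, antibody and complement cannot be told apart in NMO against Normal. Nor can clodronate, its liposomes and the added injection into the peritoneum in NMO+CL against NMO. The hour of sampling, which bears on corticosterone and on clock genes such as Per1, is not given in the sources used here.

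Corticosterone, the main glucocorticoid of mice, binds a receptor that waits in the cytoplasm in a complex with heat-shock proteins and co-chaperones. The bound receptor enters the nucleus, where it binds palindromic response elements to induce genes such as Fkbp5, Tsc22d3 and Per1, and restrains NF-kB and AP-1 at many inflammatory genes. Microglia express the receptor, and glucocorticoids are known to dampen their inflammatory responses.

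Libraries held 5788234 to 7837219 counts and 12458 to 14315 detected genes. All 9 microglia markers were detected in every group, and their summed level ran from 33150 to 38060 CPM (counts scaled by library size) in Normal, 28780 to 33610 in NMO and 19760 to 27370 in NMO+CL. P2ry12, the gene of the sort marker, ran from 2051 to 2660.0 CPM in Normal, from 1555 to 1753 in NMO and from 265 to 448 in NMO+CL. Of the 9 markers, edgeR called Siglech lower in NMO against Normal, where 61 of the 12292 genes tested were called, 58 of them as higher. It called 3 lower in NMO+CL against NMO (P2ry12, Siglech and Olfml3), where 1.07% of all genes were, and 6 lower in NMO+CL against Normal, where 4.43% were. The Siglech call in NMO was lost without NMO replicate 1 or 3 or any Normal library. P2ry12 and Siglech were called against NMO in all 16 alternatives and Olfml3 in 6, its call lost on leaving out any NMO library, NMO+CL replicate 1 or 2, or Normal replicate 1 or 2. Against Normal 3 of the 6 were called without NMO+CL replicate 2. The part of this in the members' levels was not tested. NMO replicate 2 stood apart in Cbr2, a border macrophage marker, with 0 counts against 124.5 to 394 CPM in the other 8 libraries. The differences of Hsd11b1 and Klf9 that involve NMO are given with and without it.

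The member genes on the mm10 (GRCm38) build in GENCODE M21 are Fkbp5 at chr17:28399094-28517527 (minus strand), Klf9 at chr19:23141226-23168134 (plus), Per1 at chr11:69095217-69109960 (plus) and Tsc22d3 at chrX:140539528-140600659 (minus). Sgk1 lies at chr10:21882184-21999903 (plus), Ddit4 at chr10:59949669-59951834 (minus), Hsd11b1 at chr1:193221634-193264075 (minus) and Pdk4 at chr6:5483351-5496309 (minus). The reads came from the 3′ ends of transcripts, and the 3′-most exon of none of these 8 genes overlapped an exon of another annotated gene. Reads of this kind do not separate transcripts that start at different sites of a gene.

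The 250 bases before each RefSeq start site of these 8 genes (GRCm38.p6, 16 windows) were searched on both strands for the response element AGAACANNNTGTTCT, for its half-site AGAACA and for the E-box CACGTG, the element of the circadian activators. Of the 32851 windows of all genes, 0.00913% held the full element, 16.1% a half-site and 6.02% an E-box. A full element always holds a pair of half-sites. Among the members, 1 window held the full element, the fifth of the 6 of Sgk1, at chr10:21993640-21993889 on the plus strand. It is printed below with the windows of Fkbp5 (chr17:28486150-28486399, minus strand) and of the first Per1 start site (chr11:69098699-69098948, plus strand), the nearest to Fkbp5 in pattern over the 9 libraries among the members compared with it. Each of the printed windows lies inside its annotated gene. Capitals mark matches to the searched letters, and each run is written 5′ to 3′ and ends at the base before the start site.
Sgk1: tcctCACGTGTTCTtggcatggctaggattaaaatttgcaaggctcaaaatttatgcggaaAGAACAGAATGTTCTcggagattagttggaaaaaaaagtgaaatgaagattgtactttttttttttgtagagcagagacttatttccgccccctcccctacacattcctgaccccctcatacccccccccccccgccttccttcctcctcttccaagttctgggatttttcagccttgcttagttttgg
Fkbp5: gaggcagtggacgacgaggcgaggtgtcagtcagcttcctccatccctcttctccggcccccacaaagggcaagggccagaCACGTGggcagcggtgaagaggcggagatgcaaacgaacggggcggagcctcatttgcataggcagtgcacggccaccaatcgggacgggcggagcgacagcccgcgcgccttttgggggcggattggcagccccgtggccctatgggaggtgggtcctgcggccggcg
Per1: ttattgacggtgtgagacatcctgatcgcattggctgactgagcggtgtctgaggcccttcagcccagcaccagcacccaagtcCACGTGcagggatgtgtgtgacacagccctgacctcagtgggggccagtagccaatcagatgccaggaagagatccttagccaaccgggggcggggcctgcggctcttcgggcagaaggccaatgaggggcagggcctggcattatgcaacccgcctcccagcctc
The element of Sgk1 spans positions -189 to -175 from the start site, and further upstream an E-box at -246 to -241 runs into a separate half-site at -242 to -237. Fkbp5 holds an E-box at -169 to -164 and Per1 one at -166 to -161. A half-site alone was found in the first Tsc22d3 window (-185 to -180) and in the first and the fourth Sgk1 windows (-195 to -190 and -13 to -8). The searched letters were not found in the windows of Klf9, Ddit4, Hsd11b1 or Pdk4. Such matches describe the letters of a short window, and glucocorticoid response elements often lie far outside it.

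The receptor gene Nr3c1 was at 231, 178 and 180 CPM in Normal replicates 1 to 3, at 155, 164 and 177 in NMO and at 143, 125 and 123 in NMO+CL. The 3 groups did not overlap, with Normal the highest and NMO+CL the lowest, although the highest NMO and the lowest Normal library differed by less than 1 CPM. On the log2 scale NMO differed from Normal by -0.25 ± 0.19 (SE), with an adjusted p of 0.781 by the edgeR quasi-likelihood test. The difference of NMO+CL from NMO was -0.34 ± 0.19 and that from Normal -0.59 ± 0.19. In bulk samples such as these, fewer cells of a type and less RNA per cell cannot be told apart.

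Hsd11b1, the enzyme that regenerates active corticosterone from its inert 11-keto form, was low, at no more than 10.35 CPM in any library. Its counts were 15, 7 and 27 in Normal, 78, 0 and 63 in NMO and 18, 64 and 50 in NMO+CL. All 3 groups overlapped, and the single library at 0, NMO replicate 2, is the one that had no Cbr2 either. A count of 0 there allows up to 0.359 CPM at 95% confidence, for counting error only. The log2 difference of NMO from Normal was 1.31 ± 1.17 (adjusted p = 0.849, edgeR), or 1.89 without NMO replicate 2 and -0.55 by limma-voom, where the direction turned. That of NMO+CL from NMO was 0.08 ± 1.14, or -0.51 without NMO replicate 2 and 1.91 by limma-voom.

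Fkbp5, a co-chaperone that lowers the receptor's affinity for hormone and is itself induced by it, was the gene whose level led to the choice. It was at 25.5, 39.7 and 40.0 CPM in Normal, 44.4, 48.0 and 53.4 in NMO and 164, 183 and 134 in NMO+CL. Every NMO library lay above every Normal library, and the lowest NMO+CL library lay far above the highest NMO library. The group means were 35.0 ± 8.29, 48.6 ± 4.504 and 160.3 ± 24.7 CPM (SD, n = 3). NMO exceeded Normal by 0.47 ± 0.24 on the log2 scale, which did not pass the test (adjusted p = 0.576, edgeR). The NMO+CL mean was 3.30-fold the NMO level in the fit, a log2 difference of 1.72 ± 0.24, and 2.19 ± 0.25 above Normal. Over 16 alternatives of scaling, test, filter and libraries the log2 difference of NMO+CL from NMO stayed between 1.61 and 1.83.

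**Figure D1:**
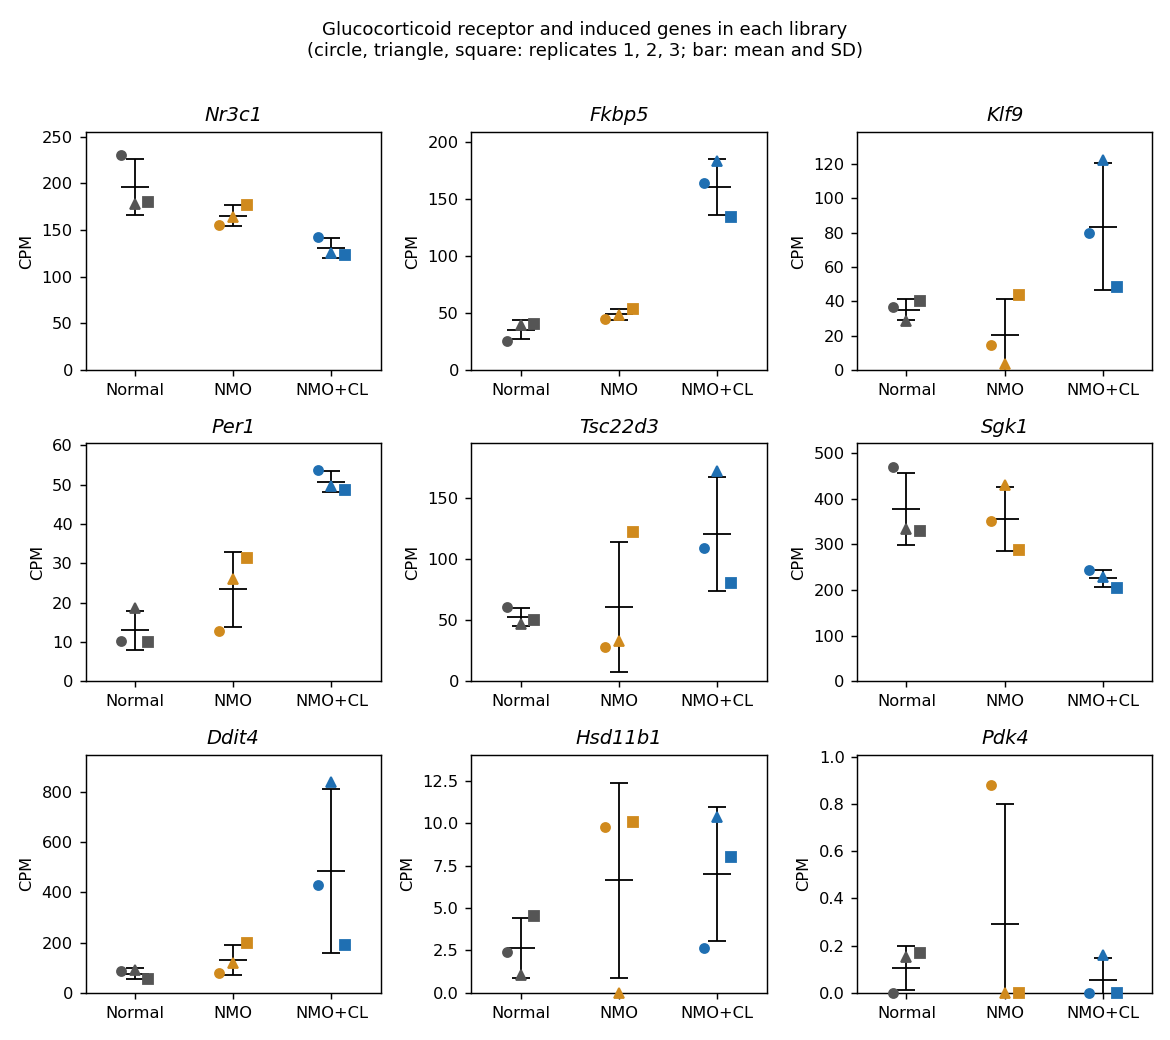
Level of each of the 9 genes in each library, in CPM on an axis from 0, by group (circle, triangle and square are replicates 1, 2 and 3, and the bar is the mean with the SD). Fkbp5 and Per1 sit apart and high in all 3 NMO+CL libraries, Nr3c1 and Sgk1 are lowest there, and Klf9, Tsc22d3 and Ddit4 spread widely within NMO+CL.

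Per1, a repressor of the circadian clock that glucocorticoids also induce directly, followed the pattern of Fkbp5 most closely among the members compared with it. Its levels were 10.3, 18.8 and 9.91 CPM in Normal, 12.8, 25.9 and 31.5 in NMO and 53.7, 49.8 and 48.8 in NMO+CL. The NMO+CL libraries lay close together and above all others, whereas NMO and Normal overlapped. NMO against Normal gave 0.84 ± 0.38 on the log2 scale (adjusted p = 0.487, edgeR). The NMO+CL difference was 1.12 ± 0.37 from NMO and 1.96 ± 0.38 from Normal.

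Klf9, a Krüppel-like transcription factor, was at 36.4, 28.5 and 40.3 CPM in Normal, at 14.6, 3.23 and 43.5 in NMO and at 80.1, 122 and 48.3 in NMO+CL. All NMO+CL libraries lay above all others, but the third of them exceeded NMO replicate 3 by little. NMO replicate 2 was the lowest of the 9, with 27 counts. The log2 difference of NMO+CL from NMO was 2.04 ± 0.58, and it was 1.53 without NMO replicate 2 and 3.23 without NMO replicate 3. NMO differed from Normal by -0.79 ± 0.57 (adjusted p = 0.753, edgeR), or -0.28 without NMO replicate 2, -1.98 without NMO replicate 3 (adjusted p = 0.108, edgeR) and -1.60 by limma-voom. Border macrophage markers summed to 214, 275 and 407 CPM in NMO+CL against 187, 8.60 and 165 in NMO, mostly through Cbr2, whose means were 275 and 105 CPM. In Normal they summed to 307, 222 and 160 CPM. Within NMO+CL, replicate 3 had the highest sum and the lowest Klf9. Without Cbr2, a choice made after seeing the data, the sums overlapped, at 29.1, 28.6 and 12.8 CPM in NMO+CL and 28.2, 8.60 and 10.2 in NMO. The part of such cells in Klf9 was not tested.

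Tsc22d3, which encodes the anti-inflammatory leucine zipper protein GILZ, was at 61.3, 46.7 and 50.4 CPM in Normal, 27.9, 32.7 and 122 in NMO and 109, 172 and 80.6 in NMO+CL. NMO replicate 3 was as high as the NMO+CL libraries while the other NMO libraries lay below every Normal library. NMO against Normal gave 0.20 ± 0.43 (adjusted p = 0.966, edgeR), and -0.80 without NMO replicate 3. NMO+CL exceeded NMO by 0.99 ± 0.43 with overlap, by 1.99 without that library and by 0.643 without NMO+CL replicate 2. It exceeded Normal by 1.19 ± 0.43 without overlap, and by 0.845 without NMO+CL replicate 2.

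Ddit4, an inhibitor of mTORC1 that hypoxia and other stresses induce as well, was at 87.5, 90.3 and 53.7 CPM in Normal, 78.3, 118 and 198 in NMO and 429.7, 837 and 189 in NMO+CL. The lowest NMO+CL library lay just under the highest NMO library, and the others were far above. NMO against Normal gave 0.77 ± 0.41 on the log2 scale (adjusted p = 0.596, edgeR), and 0.35 without NMO replicate 3. The difference of NMO+CL from NMO was 1.89 ± 0.41, and 1.24 without NMO+CL replicate 2, and that from Normal was 2.65 ± 0.43, or 2.004 without the same library. In the fit of every gene with a count, the NMO against Normal difference of Ddit4 was called (adjusted p = 0.0356, edgeR).

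Sgk1, a serine/threonine kinase of ion transport and survival, whose upstream window printed above holds the full element, was lowest in NMO+CL. Its levels were 469, 333 and 329 CPM in Normal, 350.0, 429 and 288 in NMO and 243, 228 and 205 in NMO+CL. NMO and Normal overlapped, with a log2 difference of -0.09 ± 0.20 (adjusted p = 0.972, edgeR) that changed sign under 3 alternatives. All NMO+CL libraries were lower than all others, with log2 differences of -0.66 ± 0.20 from NMO and -0.74 ± 0.20 from Normal. Pdk4, the kinase that shuts pyruvate out of mitochondrial oxidation, held 0, 1 and 1 counts in Normal, 7, 0 and 0 in NMO and 0, 1 and 0 in NMO+CL. It did not pass the filter on low counts and was not tested.

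**Figure D2:**
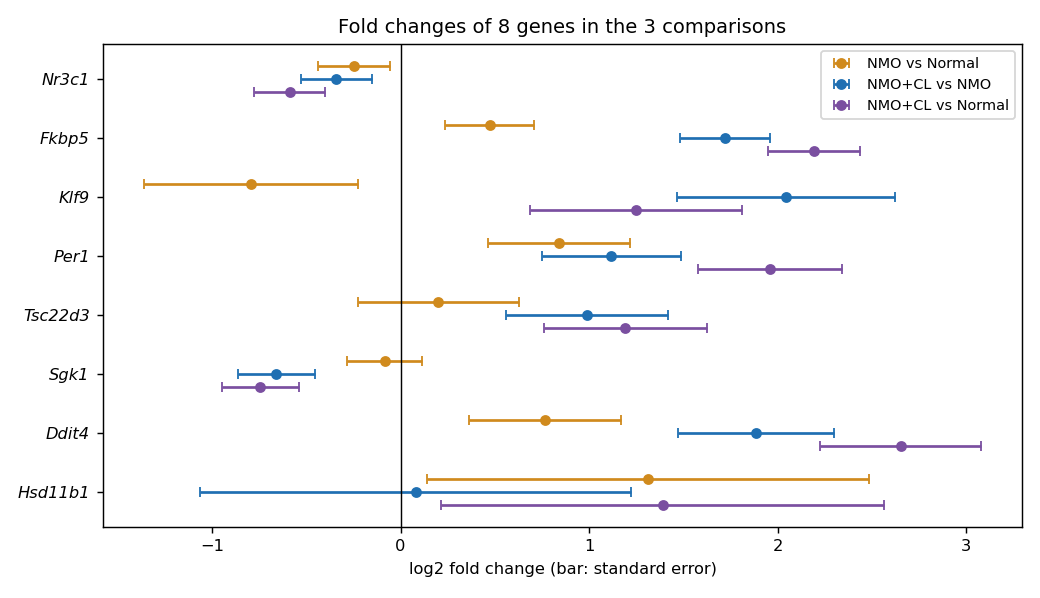
Log2 fold change of each of the 8 fitted genes in the 3 comparisons, with its standard error as the bar. Fkbp5, Klf9, Per1 and Ddit4 lie above 1 in NMO+CL against NMO, and Hsd11b1 has the widest errors. Nr3c1 and Sgk1 lie below 0 in all 3 comparisons, Sgk1 by less than its standard error in NMO against Normal.

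In NMO against Normal, 0 of the 8 members that passed the filter were called at an adjusted p under 0.05, where 0.496% of the 12292 genes tested were. Per1 had the single unadjusted p under 0.05, limma-voom gave 0 calls with 1 unadjusted p under 0.05, and DESeq2 gave 0 and 0. Without NMO replicate 2, 0 members were called either. Fkbp5 was higher and Nr3c1 lower without overlap, 1 member in each direction, against 9.21% and 8.20% of all genes. In NMO+CL against NMO, 3 members were higher without overlap (Fkbp5, Klf9 and Per1) and 2 lower (Nr3c1 and Sgk1), where 7.89% and 9.22% of all genes were, and nothing is read from this since Fkbp5 in that comparison led to the choice. Against Normal, NMO+CL had 5 members higher, with Tsc22d3 and Ddit4 added, and 2 lower, against 13.8% and 14.9%. The 2 comparisons share the NMO+CL libraries.

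Within the groups, single libraries were high for several members at once. NMO replicate 3 was the highest NMO library for Nr3c1, Fkbp5, Klf9, Per1, Tsc22d3, Ddit4 and Hsd11b1, and the lowest for Sgk1. NMO+CL replicate 2 was the highest of its group for Fkbp5, Klf9, Tsc22d3, Ddit4 and Hsd11b1, but not for Per1, Nr3c1 or Sgk1. NMO+CL replicate 3 was the lowest of its group for Fkbp5, Klf9, Per1, Tsc22d3, Ddit4, Nr3c1 and Sgk1. Such ordering is a description of 3 libraries per group.

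Likeness to Fkbp5 was measured as the root mean square difference of z-scored log2 CPM over the 9 libraries, among the 8841 genes whose mean count was 50 or more. Per1 ranked 72 (difference 0.438) and Ddit4 137 (0.492), whereas Tsc22d3 ranked 890, Klf9 1524, Sgk1 8650 and Nr3c1 8674. The most similar gene was Ifi30, a lysosomal thiol reductase of antigen processing, with a difference of 0.206 and mean levels in Normal, NMO and NMO+CL of 173 ± 19.8, 279 ± 14.3 and 675 ± 74.6 CPM. Usp10, a deubiquitinase, followed at 0.230 and 34.6 ± 1.80, 41.1 ± 2.81 and 61.9 ± 2.08 CPM. Ms4a6c, a membrane protein of the MS4A family, stood at 0.241 with 62.2 ± 7.20, 84.4 ± 7.91 and 728 ± 334 CPM. The others were Kcnq1ot1 (0.243), an imprinted long noncoding RNA antisense to Kcnq1 whose reads could not be told from those of its partner without strand, and Alox5ap (0.251), the 5-lipoxygenase activating protein, at 297 ± 25.0, 319 ± 28.9 and 574 ± 51.1 CPM. All 5 had their highest level in NMO+CL, as the measure requires.

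A further 28 glucocorticoid-induced genes were followed, and 23 of them passed the filter. They were listed with earlier results of these data known, after the rise of Fkbp5 had led to the pathway. Their calls and medians in the comparisons with NMO+CL are therefore not independent of that choice. In NMO against Normal 0 were called by edgeR, 4 had an unadjusted p under 0.05, and the median log2 difference was 0.20 against -0.01 for all genes tested. DESeq2 called 1, Map3k6, as lower, among 222 genes called in all. In NMO+CL against NMO 3 were called higher and 1 lower, where 1.59% of all genes were called, 0.529% as higher and 1.07% as lower. The numbers higher and lower were 3 and 3 with every gene that had a count, 1 and 1 by limma-voom or without NMO replicate 3, 1 and 0 with only the 2 groups compared, 0 and 1 without NMO replicate 2, and 0 and 0 without NMO replicate 1 or NMO+CL replicate 2. The median was 0.16 for these genes, or the same with Map3k6 at the bound given for it further on, against -0.005 for all genes tested. Against Normal, 2 were called higher in NMO+CL and 2 lower, where 4.78% and 4.43% of all genes were, and the median was 0.61 against -0.01.

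Il1r2, the decoy receptor of interleukin-1, was at 0, 0 and 1.68 CPM in Normal, 2.51, 1.79 and 2.40 in NMO and 23.0, 118 and 6.39 in NMO+CL. Each NMO+CL library exceeded all others, and the group spanned from 40 to 730 counts. Its log2 difference of 4.45 ± 0.97 from NMO was called (adjusted p = 0.0252, edgeR), but not once NMO+CL replicate 2 was left out (2.71, adjusted p = 0.502), in limma-voom (adjusted p = 0.261) or in 5 other alternatives of 16. Leaving out NMO replicate 1, 2 or 3 was among these, with adjusted p of 0.0937, 0.0584 and 0.0630. The call against Normal (6.46 ± 1.13, adjusted p = 0.00134) did not hold in limma-voom (adjusted p = 0.168) or with that library left out (4.70, adjusted p = 0.0633). Without Normal replicate 3 the fitted difference was 11.40, which is no bound, since the remaining Normal libraries held 0 counts. Neutrophils also carry Il1r2, and all 8 of their markers were detected, with sums of 1319, 290 and 514 CPM in NMO+CL against 311, 150 and 460 in NMO. The part of neutrophils in Il1r2 was not tested.

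Map3k6, a stress-activated kinase, had 0 counts in all 3 NMO libraries and 7, 170 and 69 in NMO+CL. With 3 counts per NMO library as the floor (mean 0.405 CPM), the NMO+CL mean was at least 32.6-fold higher, or at least 14.9-fold without NMO+CL replicate 2. This bound covers counting error in NMO and not the spread between the NMO+CL libraries, of which replicate 1 was at 1.02 CPM. The difference was called (adjusted p = 0.0274, edgeR), a call lost in 5 of 15 alternatives. These were limma-voom (adjusted p = 0.187) and leaving out NMO+CL replicate 2 (0.234) or NMO replicate 1, 2 or 3 (0.0905, 0.0566 and 0.0557). Normal held 21, 10 and 0 counts and overlapped NMO+CL, and the log2 difference of 3.01 ± 1.33 between them was not called (adjusted p = 0.194, edgeR). Mt1, a zinc-binding metallothionein, was at 78.4, 109 and 98.9 CPM in Normal, 60.0, 59.6 and 81.5 in NMO and 142, 177 and 107 in NMO+CL. NMO was low and NMO+CL high, without overlap between them, and the difference of 1.09 ± 0.24 passed the test (adjusted p = 0.0259, edgeR) except in 4 of 16 alternatives. These 4 included leaving out NMO replicate 1 (adjusted p = 0.126), NMO replicate 2 (0.0839) or NMO+CL replicate 2 (0.181).

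Nfkbia, the inhibitor of NF-kB that both glucocorticoids and NF-kB itself induce, rose in NMO+CL against Normal. It was at 541, 497 and 686 CPM in Normal, 676, 845 and 730.4 in NMO and 1025, 1135 and 893 in NMO+CL. NMO+CL lay above all other libraries, and its difference of 0.82 ± 0.18 from Normal was called (adjusted p = 0.00632, edgeR) in the 16 alternatives as well. Txnip, an inhibitor of thioredoxin and of glucose uptake, fell instead. It was at 592, 615 and 1034 CPM in Normal, 825, 652 and 638 in NMO and 425, 249 and 186 in NMO+CL, a difference of -1.38 ± 0.27 from Normal (adjusted p = 0.00346, called in 16 of 16 alternatives) and -1.30 ± 0.27 from NMO (adjusted p = 0.0223, called in 12 of 16). Without NMO replicate 1 the adjusted p of the latter was 0.102, and without NMO+CL replicate 2 or 3 it was 0.122 and 0.0571. Rhob, a small GTPase of endosomes, was called lower in NMO+CL, with a log2 difference from Normal of -0.98 ± 0.26 (adjusted p = 0.0218, called in 12 of 16), though NMO+CL replicate 3 at 741 CPM exceeded Normal replicate 2 at 734. Its adjusted p was 0.0716 without NMO+CL replicate 1, 0.116 without NMO+CL replicate 2 and 0.172 without Normal replicate 3.

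**Figure D3:**
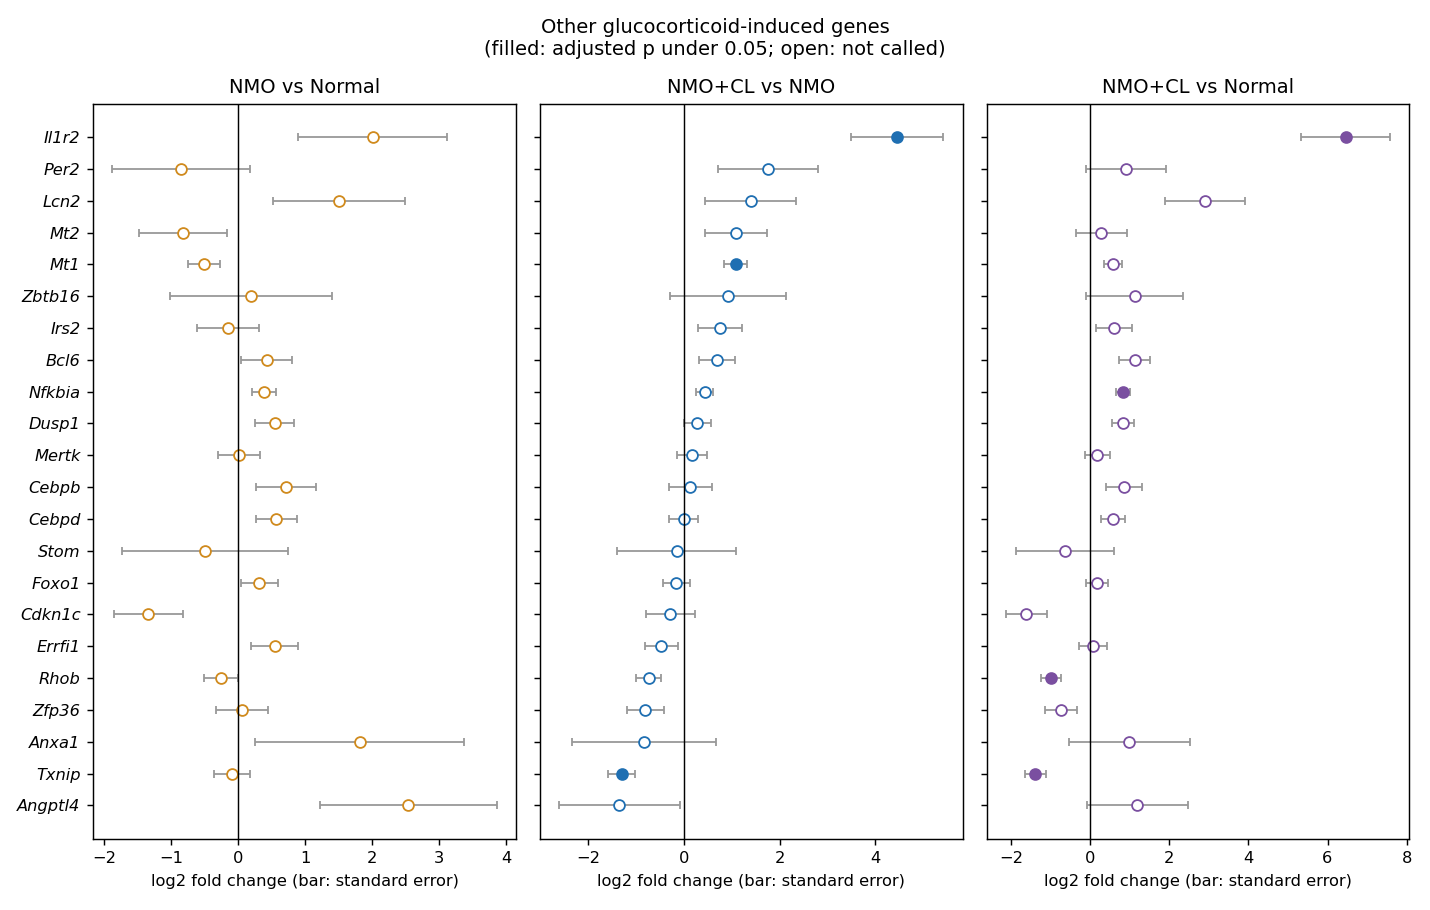
Log2 fold change with standard error of 22 of the 23 tested further induced genes in each comparison (Map3k6 is left out, since its NMO libraries held 0 counts), sorted by NMO+CL against NMO. Filled points passed an adjusted p of 0.05: Il1r2, Mt1 and Txnip in NMO+CL against NMO, and Il1r2, Nfkbia, Rhob and Txnip against Normal.

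The receptor is folded and held by chaperones, of which 8 were followed. Hspa8 was called higher in NMO against Normal, where 0.472% of all genes were, and the median log2 difference was 0.77 against -0.01 for all genes. DESeq2 called 3 and limma-voom 2 as higher there, among 222 and 43 genes called in all. By edgeR 0 were called without NMO replicate 1 or Normal replicate 1 or 2, and 2 with the replicate block. For NMO+CL against Normal 5 were called higher (Fkbp4, Hsp90ab1, Hspa8, Ptges3 and Stip1) where 4.78% of all genes were, with a median of 0.97, and 0 were lower. Without Normal replicate 2 or 3, 3 were called. Between NMO+CL and NMO edgeR called 0, 3 had an unadjusted p under 0.05, and the median was 0.42. DESeq2 and limma-voom called 2 each as higher, among 465 and 183 genes called in all.

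Hspa8, the constitutive heat-shock cognate 70 that delivers the receptor to Hsp90, was at 279, 302 and 330.2 CPM in Normal, 601, 584 and 573 in NMO and 873, 907 and 819 in NMO+CL. The 3 groups did not overlap. It exceeded Normal by 0.95 ± 0.16 in NMO (adjusted p = 0.00908, edgeR) and by 1.51 ± 0.16 in NMO+CL (adjusted p = 2.19e-05). The first call was lost without NMO replicate 1 (adjusted p = 0.0697), Normal replicate 1 (0.0644) or Normal replicate 2 (0.0702). Hsp90ab1, which holds the receptor ready for hormone, was at 831, 1273 and 1398 CPM in Normal, 2157, 2076 and 2033 in NMO and 2726, 3761 and 4103 in NMO+CL. These groups too were separate, with an adjusted p of 7.79e-05 for NMO+CL against Normal (1.60 ± 0.20) and of 0.0658 for NMO against Normal (0.84 ± 0.19). Fkbp4, the relative of Fkbp5 that favours hormone binding and nuclear transport, was at 66.0, 42.1 and 75.2 CPM in Normal, 104, 106 and 116 in NMO and 116, 115 and 139 in NMO+CL. It was higher in NMO+CL than in Normal by 1.01 ± 0.23 (adjusted p = 0.00951, edgeR, and 0.0618 without Normal replicate 2), and differed from NMO by 0.18 ± 0.23. The co-chaperones Stip1 (1.01 ± 0.24, adjusted p = 0.0112) and Ptges3 (0.80 ± 0.20, adjusted p = 0.0188) were called against Normal in 15 and 12 of 16 alternatives. Stip1 lost its call without Normal replicate 3 (adjusted p = 0.0667), and Ptges3 without NMO+CL replicate 2 (0.0980) or Normal replicate 1, 2 or 3 (0.0560, 0.0807 and 0.0595).

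**Figure D4:**
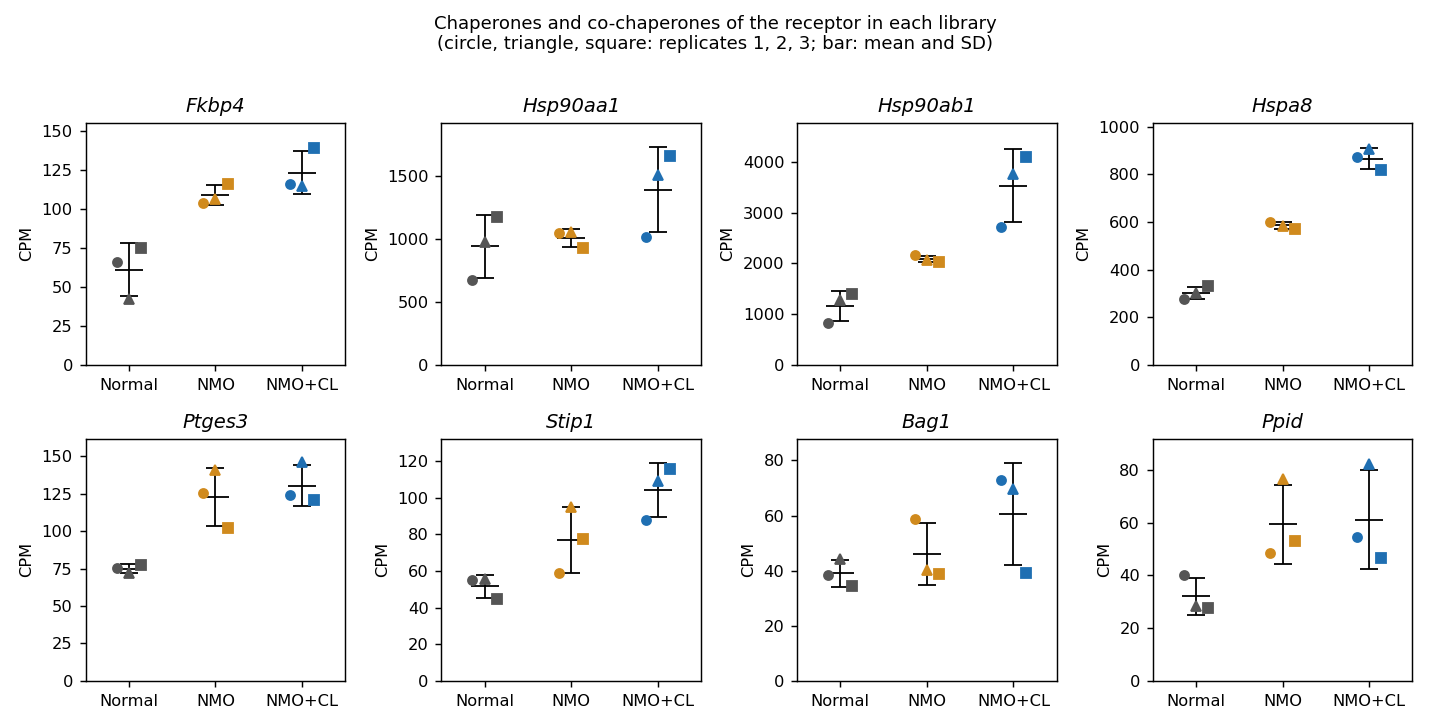
Level of 8 chaperones and co-chaperones of the receptor in each library, in CPM on axes from 0 (circle, triangle and square are replicates 1, 2 and 3, and the bar is the mean with the SD). Hspa8 and Hsp90ab1 form 3 separate steps from Normal to NMO to NMO+CL, while Fkbp4 and Ptges3 separate Normal from both injected groups.

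Of 10 coregulators of the receptor, edgeR called 0 in NMO against Normal, where 0 had an unadjusted p under 0.05, and 0 in NMO+CL against NMO, where 2 did. In NMO+CL against Normal the ATPase Smarca4 of the SWI/SNF remodelling complex was called higher (0.76 ± 0.19, adjusted p = 0.0144, edgeR), where 4.78% of all genes were, but not without Normal replicate 1 (adjusted p = 0.0507) or replicate 3 (0.0888). Of 5 genes of corticosteroid handling 2 passed the filter and 0 were called, with 0 unadjusted p-values under 0.05. Hsd11b2, which inactivates corticosterone, had 0 counts in all 9 libraries, and the mineralocorticoid receptor Nr3c2 had 3, 3 and 7 counts in Normal, 22, 6 and 14 in NMO and 0 in each NMO+CL library.

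Among 14 inflammatory genes that glucocorticoids are known to repress, 12 passed the filter. Il1b (2.24 ± 0.33, adjusted p = 0.00372) and Ccl2 (2.82 ± 0.55, adjusted p = 0.0258) were called higher in NMO against Normal by edgeR, where 0.472% of all genes were, the second not in 7 of 16 alternatives. Its adjusted p was 0.0866 and 0.131 without NMO replicates 1 and 2, and 0.153 and 0.154 without Normal replicates 1 and 2. Between NMO+CL and NMO edgeR called 0, and the median log2 difference was -0.14. The 1 unadjusted p under 0.05 was that of Ccl2 (-1.65 ± 0.52, adjusted p = 0.144, edgeR). Without NMO replicate 3, or with every gene with a count, 1 gene of the list was called lower. Il1b was at 91.0, 65.6 and 44.4 CPM in NMO and 66.4, 67.6 and 73.7 in NMO+CL, above all 3 Normal libraries, which did not exceed 18.8. Against Normal, Il1b (2.29 ± 0.33, adjusted p = 2.93e-04) and Tnf (1.37 ± 0.36, adjusted p = 0.0220) were called higher in NMO+CL, where 4.78% of all genes were. The Tnf call was lost on leaving out NMO+CL replicate 2 (adjusted p = 0.139), Normal replicate 2 (0.0864) or Normal replicate 3 (0.109).

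Clock genes were set beside Per1. Of 13, 12 passed the filter, and edgeR called 0 in NMO against Normal and 0 in NMO+CL against NMO, with 0 unadjusted p-values under 0.05 in either. Nr1d2, the repressor REV-ERB beta, was called lower in NMO+CL than in Normal (-1.60 ± 0.47, adjusted p = 0.0383), where 4.43% of all genes were, and was at 38.4, 26.0 and 48.4 CPM in Normal, 12.8, 14.7 and 44.4 in NMO and 16.5, 10.8 and 9.91 in NMO+CL. That call was lost in 5 of 16 alternatives, with an adjusted p of 0.127 and 0.0989 without NMO+CL replicates 2 and 3, and of 0.106 and 0.175 without Normal replicates 1 and 3. Per2, like Per1 a clock repressor and an induced gene, averaged 4.82 ± 2.60 CPM in Normal, 2.64 ± 2.36 in NMO and 9.04 ± 2.02 with clodronate liposomes, and was not called in NMO+CL against NMO (adjusted p = 0.529). Of the 5 relatives of Pdk4 and the phosphatases that oppose it, and of 4 tested relatives of Sgk1 and Tsc22d3, edgeR called 0 in each of the 3 comparisons, where 0 to 2 per list had an unadjusted p under 0.05. Of 14 early genes that tissue dissociation induces, Ier3 was called higher in NMO+CL against NMO (1.39 ± 0.27, adjusted p = 0.0132, edgeR, and 0.0876 without NMO+CL replicate 2), and Ier2 (1.21 ± 0.35, adjusted p = 0.0354) and Ier3 (1.66 ± 0.27, adjusted p = 8.52e-04) against Normal. Of all genes, 0.529% and 4.78% were called higher in these 2 comparisons. The Ier2 call was lost in 8 of 16 alternatives, with an adjusted p of 0.0536 to 0.172 when NMO replicate 1, NMO+CL replicate 1 or 2, or any Normal library was left out.

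Markers of other cells were set beside the members. The 7 monocyte markers, all detected in each group, summed to 21.9 to 51.4 CPM in Normal, 33.6 to 69.9 in NMO and 27.2 to 75.7 in NMO+CL, and neutrophil markers to 97.6 to 564, 150 to 460 and 290 to 1319. Of the 8 neutrophil markers edgeR called 0 in NMO+CL against NMO, and 2 had an unadjusted p under 0.05, S100a8 (1.70 ± 0.76) and Csf3r (-0.97 ± 0.33). Against Normal 0 were called by edgeR and 3 had an unadjusted p under 0.05, and limma-voom called 2 higher, among 1080 genes called in all. With the replicate block or every gene with a count, edgeR called 2 higher. It called 3 higher without Normal replicate 1, and 1 lower without NMO+CL replicate 1. Of the monocyte markers edgeR called 0 in each comparison, with 2 unadjusted p-values under 0.05, both against Normal. Of 6 lymphocyte markers, Cd3e was at 0 in all libraries, and the sum did not exceed 7.16 CPM. The border macrophage sum was higher in NMO+CL than in NMO without overlap through Cbr2, the single marker of 5 tested with that pattern, while Mrc1, Lyve1, Pf4 and Ms4a7 overlapped. Of these 5, 0 were called by edgeR and 0 had an unadjusted p under 0.05, Cd163 was at 0 in both groups, and Normal libraries at 160 to 307 overlapped NMO+CL. Without NMO replicate 1, or with every gene with a count, edgeR called 1 border macrophage marker higher in NMO+CL against NMO. In the same settings it called 1 lower in NMO against Normal. Astrocyte and oligodendrocyte sums ran from 84.3 to 127 and from 35.7 to 68.7 CPM in NMO+CL, against 165 to 213 and 84.4 to 136 in Normal. The astrocyte markers Slc1a2 and Slc1a3 and the oligodendrocyte marker Cnp were called lower in NMO+CL against Normal by edgeR, where 4.43% of all genes were, and none of the 3 without NMO+CL replicate 2. Slc1a2 was not called without NMO+CL replicate 3 or Normal replicate 1 or 3 either, Slc1a3 without NMO+CL replicate 1 or Normal replicate 2 or 3, and Cnp without NMO+CL replicate 1 or Normal replicate 1 or 2. The part of these cells in the members' levels was not tested.

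**Figure D5:**
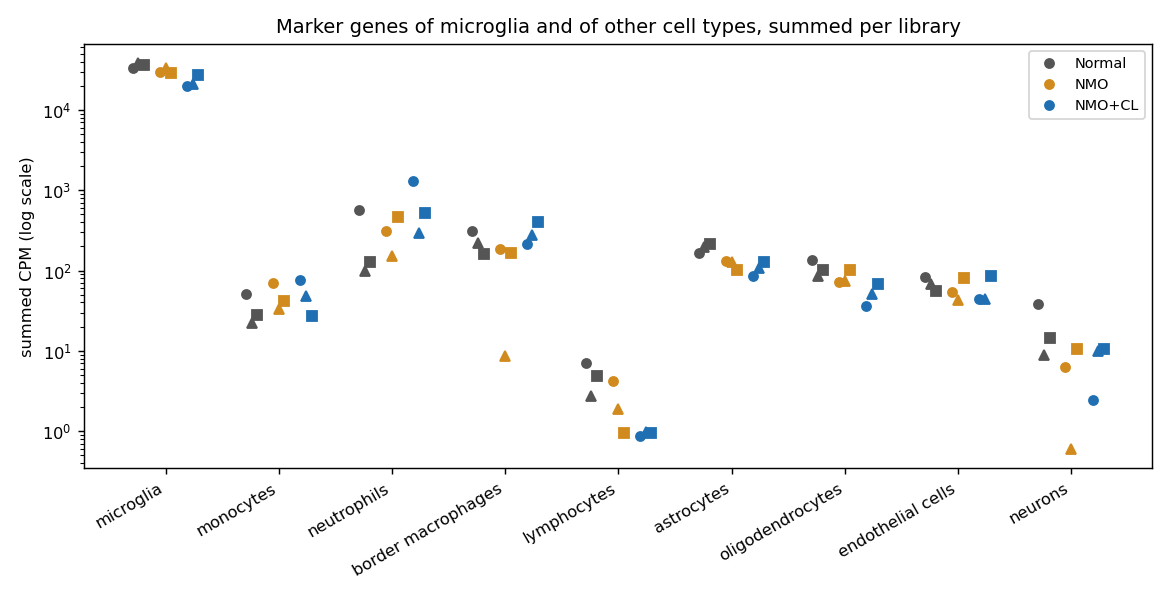
Summed level of marker genes of microglia and 8 other cell types in each library, in CPM on a log axis, coloured by group (circle, triangle and square are replicates 1, 2 and 3). Microglia markers stand far above the rest in all 9 libraries, and NMO replicate 2, which had no Cbr2 count, is the low point at 8.60 for border macrophages.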

How the data were processed

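Per the study's methods and the labels, the authors made 3′-end (QuantSeq) libraries of polyadenylated RNA, aligned the reads with Bowtie2 to mm10 and counted them with bedtools, unique and multiple alignments together. The deposited values are raw read counts per gene symbol. The annotation and the use of strand are not given in the sources used here, so reads of antisense or copied genes may be shared. The 35 symbols listed more than once, none a member, were summed.

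Counts were analysed with edgeR 4.0.16 (R 4.3.3): filterByExpr (count minimum 10, total minimum 15), TMM scaling, and a two-sided quasi-likelihood F-test in 1 fit of all 9 libraries, adjusted by Benjamini and Hochberg over 12292 genes and called at an adjusted p under 0.05. Unless a sentence names another tool, each adjusted p is from edgeR. Counts of unadjusted p-values under 0.05 are given without the share of all genes, so nothing is read from them. CPM are counts relative to the scaled library size, and log2 differences carry standard errors. The fit was also run on simulated counts with 200 genes set as changed, whose outcome is not given here. DESeq2 1.42.0 and limma 3.58.1 (voom) served as alternatives. Total counts limit precision: where a library has no count of a gene, the 95% limit is 3 counts, for counting error only. Counts of libraries within a group differed by more than counting error (chi-square per degree of freedom 21.9 to 51.1).

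The members and the gene lists were chosen with earlier results of these data known, so calls of list genes are not independent of that choice. Named genes are the 9 members, list genes called in a comparison, up to 4 of the highest otherwise, and the 5 genes most like Fkbp5. Per2, Hsd11b2 and Nr3c2 were named after their values were seen. Sequence and coordinates of Nr3c1 were not used here.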

Additional observations from a re-analysis of the deposited data

How the results depend on the processing

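For the numbers of genes called (all genes, members and gene lists), the members' log2 differences and each named list gene that was called, 16 alternatives were run, 15 for Map3k6, of which those on marker and smaller lists were added after seeing the data: DESeq2, limma-voom, RLE scaling, library totals without TMM, every gene with a count, only the 2 groups compared, a replicate block, and each of the 9 libraries left out. The cause of the changes below was not tested, except that leaving out a library or a group leaves fewer samples. In NMO against Normal 0 members were called, and 1 (Ddit4) in the fit of every gene with a count. Called genes there numbered 61, and 222 by DESeq2, 223 with every gene, 96 with library totals, 34 with only the 2 groups, and 20 (without Normal replicate 3) to 75 (without NMO+CL replicate 3) when 1 library was left out. Library totals moved the median of all genes by 0.11 in that comparison. The 196 genes called in NMO+CL against NMO became 465 by DESeq2, 496 with every gene, 73 with 2 groups, and 51 (without NMO+CL replicate 2) to 231 (without NMO+CL replicate 1). The 1133 in NMO+CL against Normal became 649 to 1265 with 1 library left out, the lowest number both without NMO+CL replicate 2 and without Normal replicate 3.

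Further induced genes called in NMO against Normal went from 0 to 1 by DESeq2 and with every gene (both Map3k6, lower), and stayed between 0 and 1 with 1 library left out (Lcn2, without Normal replicate 1). In NMO+CL against NMO they went from 4 to 6 with every gene, to 2 by limma-voom, to 1 with 2 groups, and to 0 (without NMO replicate 1, or without NMO+CL replicate 2) to 4 with 1 library left out. In NMO+CL against Normal they went from 4 to 8 with every gene, and to 2 (without NMO+CL replicate 2) to 6 with 1 left out.

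Some log2 differences of NMO from Normal, none of them called, changed sign. Tsc22d3 gave -0.20 by limma-voom, and -0.80 (without NMO replicate 3) to 0.54 with 1 library left out. Sgk1 gave 0.043 with library totals, and -0.25 to 0.091 (without Normal replicate 1) with 1 left out. Hsd11b1 gave -0.55 by limma-voom.

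Replicate numbers did not pair the libraries: deviations of same-numbered libraries from their group means correlated across genes at -0.0148 to 0.0302. With the replicate block, 53, 197 and 1123 genes were called in the 3 comparisons, and 0 members in NMO against Normal, where they were tested. Further induced genes called in NMO+CL against NMO were then 2 higher and 2 lower. Medians of lists, counts without overlap, marker sums and ranks of likeness were not recomputed. Where edgeR called 0 of a smaller list, DESeq2 and limma-voom did too, except for the chaperones and, with 1 or 2 calls by either, for neutrophil, lymphocyte, oligodendrocyte and neuron markers.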
